A study of Homo sapiens with 12 samples.

Results

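The rows described here are 6 of the 34687 rows of an expression array table. LOC100008588 and LOC100008589 are paired by identifier with the 18S and 28S ribosomal RNA (rRNA) genes in RefSeq, under the current symbols RNA18SN5 and RNA28SN5. LOC100132394, LOC100132564, LOC100132761 and LOC100133840 are numbered gene models with no match in the RefSeq gene table (GRCh38.p14), and the table keeps 9823 rows with names of this kind. The 6 rows were chosen by their ratios of drug to solvent control signal, which were among the largest under ICG-001 and C646, so these ratios describe the choice and are given without a test. No numeric threshold went with the choice. The name "co-rising" holds in PANC1 cells for each of the 6 rows, but LOC100132394 passed a 1.5-fold rise in only 1 of 4 drug comparisons in HCT116 cells.

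RNA came from HCT116, a human colon cancer line, and PANC1, a human pancreatic cancer line. Each line was given DMSO at 0.05%, which is the solvent control, ICG-001 at 10 uM or C646 at 10 uM, and was collected after 12 or 96 h, which makes 12 groups. ICG-001 blocks the binding of the co-activator CBP to β-catenin, and C646 inhibits the histone acetyltransferase activity of CBP and its relative p300. The 96 h cultures were started at a lower density than the 12 h cultures, were passaged and received fresh medium and drug through the treatment, so a contrast between time points is also a contrast of culture history. Each group was 1 column of values, the authors' mean of 2 arrays or, for PANC1 ICG-001 12 h, of 3 arrays. Differences between columns therefore have no replicate check and no error, no p-value is given, and the number of arrays limits their precision.

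The 18S rRNA is the RNA of the small ribosomal subunit, and the 28S rRNA belongs to the large subunit. RNA polymerase I transcribes them in the nucleolus as parts of 1 long precursor, from which the mature molecules are cut with the help of small nucleolar RNAs and many processing proteins, while 5S rRNA is made separately by RNA polymerase III. Mature rRNA makes up most of the RNA of a cell and carries no regular poly(A) tail. Array labelling of the kind used here starts from poly(A), so the signal of these rows is labelled RNA bound to the probe and is no measure of rRNA per cell. In such bulk samples more cells with a transcript and more transcript per cell cannot be told apart.

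The median signal of all rows lay between 139.05 and 139.64 in HCT116 and between 132.7 and 133.5 in PANC1. The detection limit, set at the 99th percentile of the background, was 143.6 to 144.2 in HCT116 and 135.0 to 138.0 in PANC1. Rows that exceeded it in 1 or both of the columns compared were used, and a row was counted as higher or lower at a ratio of at least 1.5, which is 0.58 on the log2 scale. Ratios were formed within a cell line, and those of rows at background scattered with an SD of 0.061 to 0.073. The labelled lines fitted part of their markers, with EPCAM at 6553 to 9562 in HCT116 and 509 to 873 in PANC1, and VIM at 14637 to 18144 in PANC1 and 257 to 335 in HCT116. The intestinal markers CDH17, LGR5 and VIL1 were above the limit in 0 of 6 HCT116 columns. PTPRC, CD3E, PECAM1 and DCN, markers of blood, endothelial and stromal cells, were under the limit in each of the 12 columns, but the stromal gene COL1A1 was above it in 6 of 6 columns of both lines (173 to 217 in HCT116, 181 to 379 in PANC1) and the monocyte marker CD14 in 6 of 6 PANC1 columns, at 142 to 173. Their part in the results was not tested.

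The 18S row had signals of 583 at 12 h and 499.8 at 96 h in the HCT116 DMSO columns. With ICG-001 its signals were 1367 and 1434, and with C646 they were 983 and 1279.8. Each of the 4 drug columns lay above both DMSO columns, and the DMSO columns were close to each other. In PANC1 the DMSO columns were far apart, with 141 at 12 h, close to the limit of 137.4, and 732 at 96 h. The PANC1 drug columns were 1340.3 and 1257 with ICG-001 against 1109 and 1702 with C646, again above both controls. The order in PANC1 was thus DMSO 12 h lowest, DMSO 96 h next and C646 96 h highest, and the order of neighbouring drug columns cannot be weighed without the single arrays.

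The 28S row had HCT116 DMSO signals of 399 and 496 at 12 and 96 h. ICG-001 gave 1733 and 1180.2, and C646 gave 623 and 831, so the drug columns again lay above the controls. In PANC1 the 28S signal was 134 in DMSO at 12 h, under the limit, and 173 in DMSO at 96 h. It was 438 after 12 h and 2841 after 96 h of ICG-001, and 509 and 1418 after C646. The highest 28S signal was thus at least 20.7-fold above the lowest in PANC1, and 4.35-fold above it in HCT116.

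LOC100132564 followed a similar course to the 28S row in PANC1. Its HCT116 signals were 346 and 172 with DMSO, 1868 and 934 with ICG-001, then 750.0 and 923 with C646 at 12 and 96 h. Its PANC1 signals were 123 with DMSO at 12 h, under the limit, 175 with DMSO at 96 h, 649 and 2716 with ICG-001, then 547 and 922 with C646. In both lines the drug columns did not overlap the DMSO columns, and the highest PANC1 signal was at least 19.8-fold above the lowest.

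LOC100132394 was the row with overlapping groups. In HCT116 its signal was 547 in DMSO at 12 h and 1014 in DMSO at 96 h, against 1420 and 1498 with ICG-001, while C646 gave 643 and 886. Both C646 columns thus lay between the controls, and the ICG-001 columns lay above them. In PANC1 its DMSO signals were 147 and 222, and its drug signals were 433 and 1598 with ICG-001, then 623 and 1241 with C646, all above the controls.

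LOC100132761 was at background without a drug and bright with both drugs. Its DMSO signals were 139.6 and 134 in HCT116, then 118 and 143.8 in PANC1, and only the last was above the limit of its column. With ICG-001 it gave 676 and 881 in HCT116, against 371 and 535 in PANC1. With C646 it gave 693 and 731 in HCT116, against 662 and 525 in PANC1. LOC100133840, in contrast, was well above background in each column, with DMSO signals of 332 and 312 in HCT116, then 344 and 287 in PANC1. In HCT116 its signals were 519 and 585 with ICG-001, while C646 gave 863 and 610. In PANC1 ICG-001 gave 662 and 727, while C646 gave 1259 and 1546. For both rows the drug columns lay above both DMSO columns in each line.

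**Figure D1:**
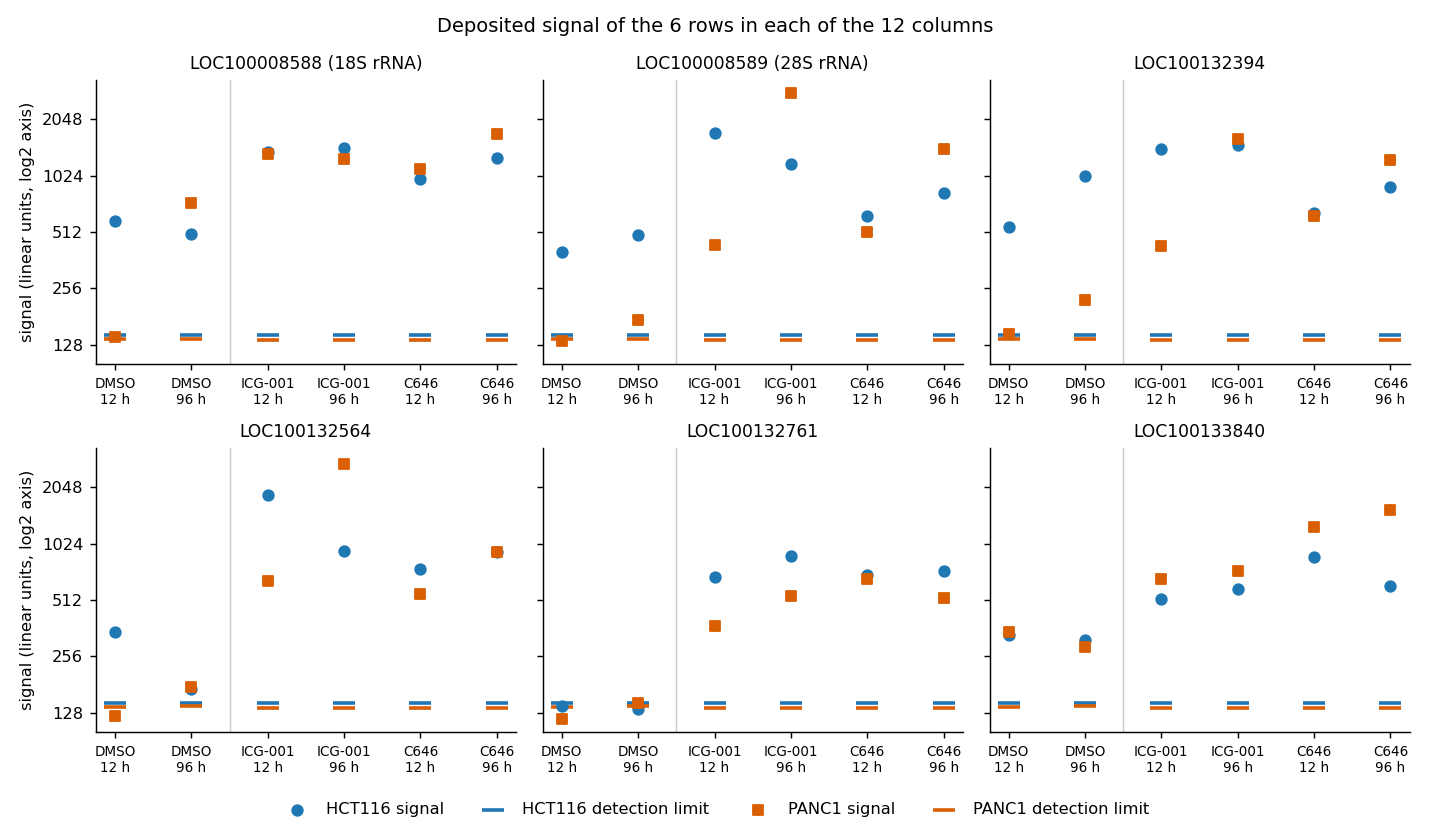
Deposited signal (linear units on a log2 axis) of each of the 6 rows by treatment and time, with 1 point per column for HCT116 (circles) and PANC1 (squares) and the detection limit of each column as a short line. The drug columns lie above both DMSO columns in each panel except for LOC100132394 in HCT116, and the 18S row in PANC1 has 1 low column, DMSO at 12 h.

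All 4 drug columns lay above both DMSO columns for 5 of the 6 rows in HCT116, where 11.4% of 19063 rows had this order, and for 6 of 6 rows in PANC1, where 13.5% of 19378 rows did. The rows were chosen for these rises, so nothing is read from the counts. LOC100132394 was the exception in HCT116.

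Against the DMSO column of the same time point, 6 of 6 rows were higher in HCT116 with ICG-001 at 12 h, where 4.84% of all rows above the limit were higher. At 96 h of ICG-001, 5 were higher against 5.16% of all rows. With C646 in HCT116, 5 were higher at 12 h (2.61% of all rows) and 5 at 96 h (1.91%). In PANC1, 6 were higher in each comparison, against 2.18% and 3.86% of all rows with ICG-001, then 4.01% and 2.82% with C646. In no comparison was 1 of the 6 rows called lower, while 4.18%, 5.14%, 1.54% and 1.23% of all rows were in HCT116 and 0.336%, 3.57%, 2.71% and 1.19% in PANC1, in the order ICG-001 12 h, ICG-001 96 h, C646 12 h and C646 96 h. The row that was not higher was LOC100132394 in each case.

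The sizes of these rises differed between rows and between lines. The 18S log2 ratios were 1.23, 1.52, 0.75 and 1.36 in HCT116, in the same order, against 3.25, 0.78, 2.97 and 1.22 in PANC1. The 28S log2 ratios were 2.12, 1.25, 0.64 and 0.75 in HCT116. In PANC1, 28S was at least 3.18-fold higher with ICG-001 and at least 3.71-fold higher with C646 at 12 h, since its control was under the limit. At 96 h the PANC1 28S row ranked 1 among all rows above the limit with either drug, at 16.4-fold and 8.20-fold over DMSO. The 18S row held rank 1 in PANC1 at 12 h with either drug.

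LOC100132564 had log2 ratios of 2.43, 2.44, 1.12 and 2.43 in HCT116 in the order ICG-001 12 h, ICG-001 96 h, C646 12 h and C646 96 h. In PANC1 it was at least 4.72-fold and at least 3.98-fold higher at 12 h with ICG-001 and C646, and 3.96 and 2.40 on the log2 scale at 96 h. LOC100132761 was at least 4.71-fold, 6.13-fold, 4.83-fold and 5.09-fold higher in the 4 HCT116 comparisons, where both controls were under the limit. In PANC1 it was at least 2.70-fold and at least 4.81-fold higher at 12 h, and its log2 ratios at 96 h were 1.90 and 1.87. Each of these 2 rows was within the 100 largest ratios in 8 of 8 comparisons, and the other 4 rows were in 5 or 6 of 8.

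LOC100133840 had smaller log2 ratios with ICG-001, of 0.65 and 0.91 in HCT116, then 0.95 and 1.34 in PANC1, than with C646, of 1.38 and 0.97 in HCT116, then 1.87 and 2.43 in PANC1. LOC100132394 had log2 ratios of 1.37 and 0.56 with ICG-001 in HCT116, where C646 gave 0.23 and -0.20. In PANC1 the same row had 1.56 and 2.85 with ICG-001, while C646 gave 2.09 and 2.49. For comparison, the middle 95% of all rows ran from -0.70 to 0.76 in HCT116 with ICG-001 at 12 h and from -0.39 to 0.55 in PANC1 with ICG-001 at 12 h.

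**Figure D2:**
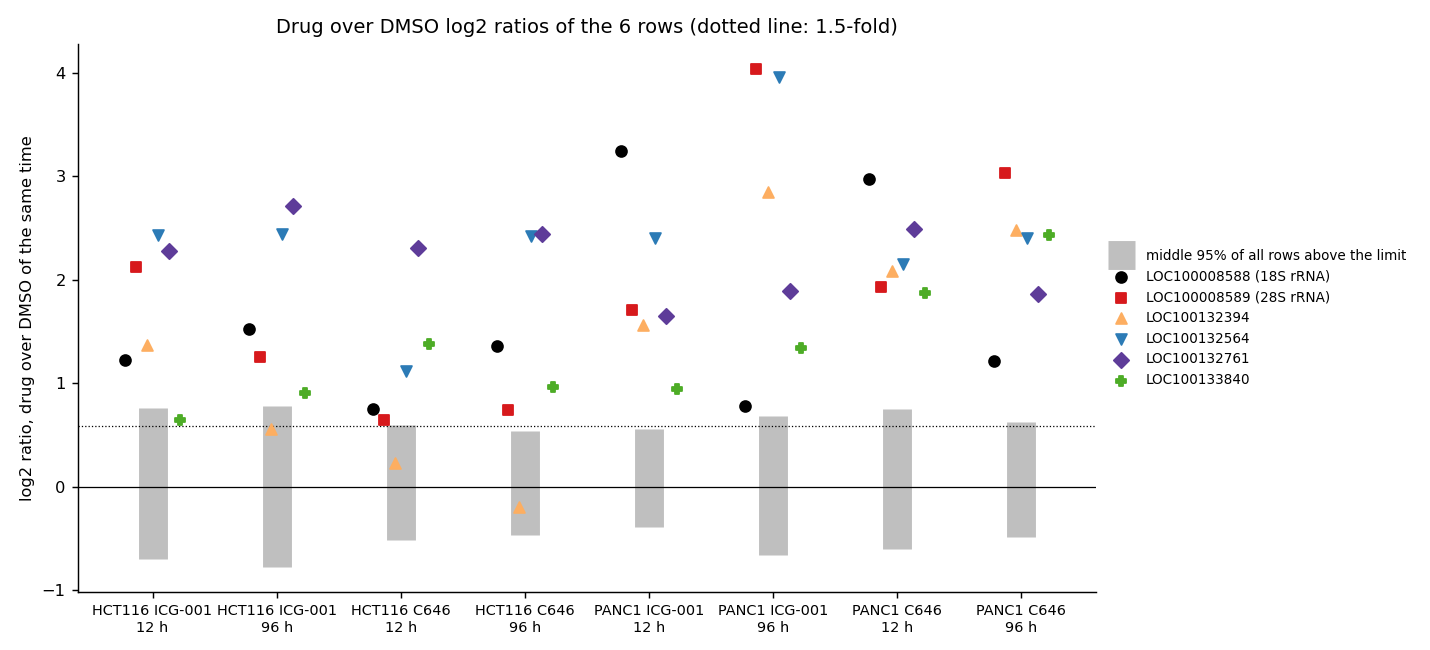
Log2 ratio of each drug column over the DMSO column of the same line and time, with 1 symbol per row, the middle 95% of all rows above the limit as a grey bar and the 1.5-fold threshold as a dotted line. LOC100132394 lies under the threshold in 3 HCT116 comparisons, and the 28S row and LOC100132564 lie highest in PANC1 with ICG-001 at 96 h, at 4.04 and 3.96. Symbols are the measured ratios, also where the control was under the detection limit.

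Several of these sizes moved with the control column. In PANC1 at 12 h, the 18S row was 1.83-fold higher with ICG-001 and 1.51-fold higher with C646 when set against the DMSO column of 96 h, where its own control gave log2 ratios of 3.25 and 2.97. At 96 h the reverse held, with log2 ratios of 3.15 and 3.59 against the 12 h control and 0.78 and 1.22 against its own. The 28S row in PANC1 at 96 h, at 16.4-fold and 8.20-fold against its own control, was at least 20.7-fold and at least 10.3-fold higher against the 12 h control, which was under the limit. LOC100132394 in HCT116 changed direction with C646, with log2 ratios of 0.23 at 12 h and -0.20 at 96 h against its own control, but -0.66 and 0.69 against the other one. Its call with ICG-001 at 12 h, the only one in HCT116, ended as the ratio went from 1.37 to 0.49, while the ratio at 96 h went from 0.56 to 1.45. The call of 28S in HCT116 with C646 at 12 h also ended, from 0.64 to 0.33. For LOC100132761 both HCT116 controls were under the limit, so ratios to either give only a lower bound.

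Between the DMSO columns, which carry no drug, 1 of the 6 rows was higher at 96 h than at 12 h in HCT116, where 1.56% of all rows were, and 1 was lower, where 1.57% were. The higher row was LOC100132394, with a log2 ratio of 0.89, and the lower was LOC100132564, with -1.01. The 18S row, the 28S row and LOC100133840 had -0.22, 0.31 and -0.09, and LOC100132761 was under the limit in both columns. In PANC1, 2 rows were higher at 96 h, where 0.982% of all rows were, and 0 were lower, where 0.333% were. The 18S row had a log2 ratio of 2.37, rank 1 of 16505 rows, and LOC100132394 had 0.60. The 28S row and LOC100132564, under the limit at 12 h, were at least 1.26-fold and at least 1.27-fold higher, and LOC100133840 had -0.26. The low 12 h control and the drug ratios at 12 h share a column, so the 18S values of these comparisons are not independent of each other.

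From 12 to 96 h with a drug, more of the rows were higher in PANC1 than in HCT116, a difference between lines that was not tested. In HCT116, 0 rows were higher at 96 h of ICG-001 (4.09% of all rows) and 1 was lower (2.78%), namely LOC100132564 with a log2 ratio of -1.00. Under C646 the HCT116 counts were 0 higher and 0 lower, against 3.82% and 3.29% of all rows. In PANC1, 3 rows were higher at 96 h of ICG-001, against 2.22% of all rows, and 0 were lower (1.74%). They were the 28S row with a log2 ratio of 2.70, LOC100132564 with 2.06 and LOC100132394 with 1.88, at ranks 2, 5 and 7 among the rows above the limit. The 18S row had -0.09 there and did not share this later rise.

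With C646 in PANC1, 4 of the 6 rows were higher at 96 h than at 12 h, where 70 of 17444 rows, or 0.401%, were. The 28S row had the highest log2 ratio of all rows, 1.48, and LOC100132394 had 0.99, LOC100132564 had 0.75 and the 18S row had 0.62. LOC100132761 and LOC100133840 had -0.34 and 0.30. No row of the 6 was lower, against 0.0803% of all rows. These columns also entered the drug ratios that chose the rows, and so the values are a description.

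**Figure D3:**
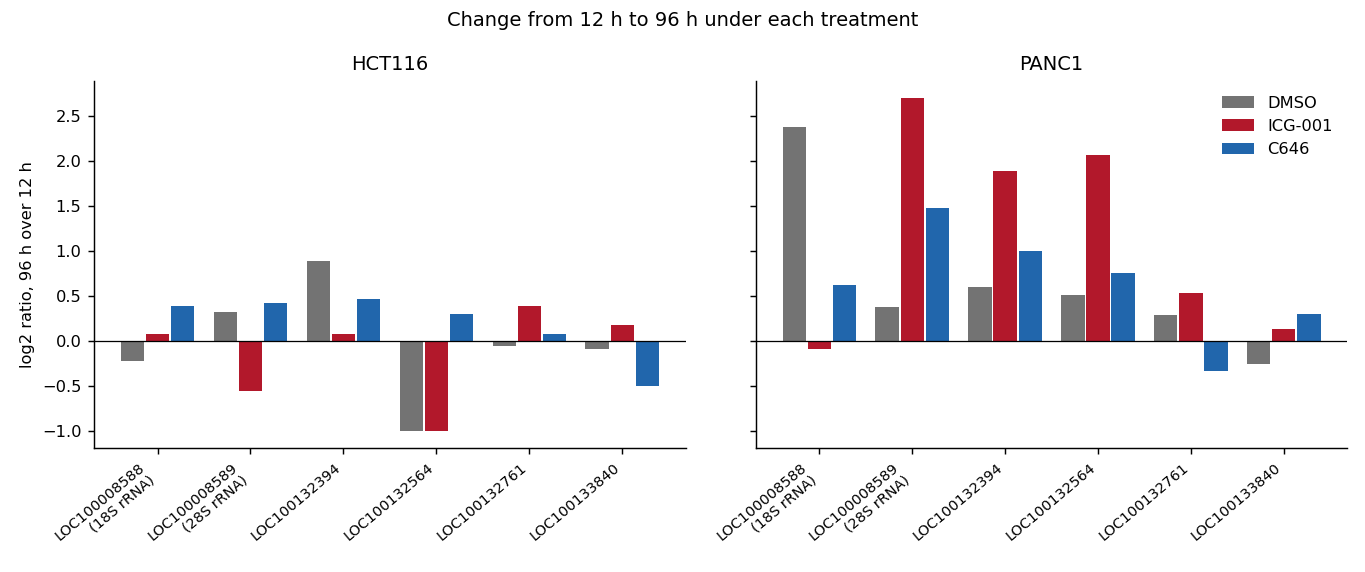
Log2 ratio of 96 h over 12 h for each of the 6 rows under DMSO, ICG-001 and C646, with HCT116 on the left and PANC1 on the right and 1 bar per pair of columns. In PANC1 the 18S row is higher with DMSO (2.37) and with C646 (0.62). The 28S row, LOC100132394 and LOC100132564 are higher with both drugs in PANC1, and LOC100132394 also with DMSO (0.60). LOC100132564 is lower in HCT116 with DMSO and ICG-001. LOC100132761 in HCT116 DMSO was under the detection limit at both times.

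ICG-001 and C646 were compared directly at the same concentration and time, as 1 pair of compounds in 4 settings. In HCT116 at 12 h, 3 of the 6 rows were higher with ICG-001, against 3.46% of all rows, and 1 was lower, against 2.83%. The higher rows were 28S with a log2 ratio of 1.48, LOC100132564 with 1.32 and LOC100132394 with 1.14, and the lower was LOC100133840 with -0.73. At 96 h in HCT116, 1 row was higher (3.25% of all rows) and 0 were lower (3.3%), namely LOC100132394 at 0.76, while the 28S row, at 0.51, did not pass 1.5-fold. In PANC1 at 12 h, 0 were higher (1.57%) and 2 were lower (0.928%), with LOC100132761 at -0.84 and LOC100133840 at -0.93. At 96 h in PANC1, 2 were higher (3.33%) and 1 was lower (3.48%), with LOC100132564 at 1.56, 28S at 1.00 and LOC100133840 at -1.09.

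LOC100133840 thus had the lower signal with ICG-001 in each of the 4 settings, although at 96 h in HCT116 its log2 ratio was only -0.06. The 18S row had 0.48 and 0.16 in HCT116, against 0.27 and -0.44 in PANC1, under 1.5-fold in each setting. With 1 column per group no interval of these differences can be given, and a ratio under 1.5 does not show that the compounds act alike.

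The 6 rows did not move as 1 block. Pearson's r of log2 signal, centred within each line, was computed over the 12 columns for the 15 pairs of rows, as a description, since the columns share treatments and arrays were normalized together. The rows were also chosen for rises with the drugs in these same columns, so positive r between them is partly built in by the choice. The 28S row was most like LOC100132394 (r = 0.96) and LOC100132564 (0.93). LOC100132761 was most like LOC100133840 (0.85) and LOC100132564 (0.84). For the 18S and 28S rows, whose RNAs are cut from the same precursor, r was 0.75, with 0.87 over the 6 HCT116 columns and 0.72 over the 6 PANC1 columns. The r of 18S with the others was 0.70 to 0.80. The lowest value was 0.64, for LOC100132394 and LOC100133840, which was 0.07 over the 6 HCT116 columns and 0.79 over the 6 PANC1 columns.

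**Figure D4:**
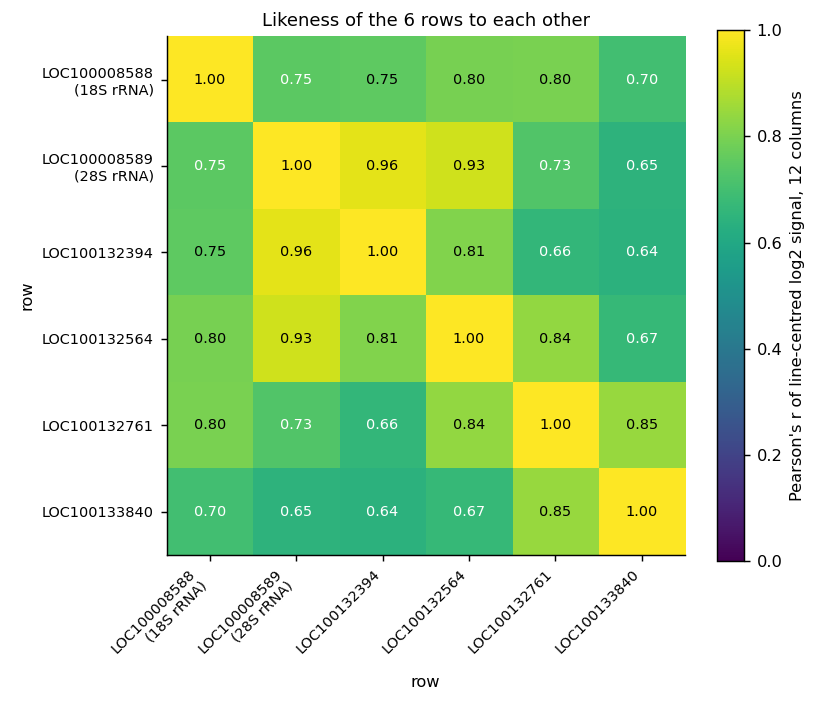
Pearson's r of log2 signal, centred within each cell line, for each pair of the 6 rows over 12 columns, with the value printed in each cell and shown by colour from 0 to 1. The 28S row, LOC100132394 and LOC100132564 form the pairs of 0.96 and 0.93, and the 18S row lies at 0.70 to 0.80 with each other row.

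Likeness can be high by chance when many rows are searched over 12 columns. It was also measured over the 17091 rows that exceeded the limit somewhere in each line. Among them the rows most like 18S were TAOK1 (r = 0.96), which encodes a protein kinase, LOC645715 (0.94), a pseudogene of the translation elongation factor EEF1A1 by its RefSeq symbol EEF1A1P24, and ANAPC11 (0.93), a subunit of the anaphase-promoting complex. Their signals spanned less than that of 18S. TAOK1, for example, went from 180.0 in PANC1 DMSO at 12 h to 263 at 96 h and 264 to 283 with the drugs, the same low first column as the 18S row.

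The rows most like 28S were LOC100134364 (r = 0.99), ENO3 (0.97), a muscle-type enolase, and LOC100132394. LOC100134364 was also nearest to LOC100132394 (0.96), followed by 28S and LOC441763 (0.96). Its PANC1 signals were 206 and 264 with DMSO, 399.6 and 1139.97 with ICG-001, then 496 and 788 with C646, so it had the same high column at 96 h of ICG-001. In HCT116 its log2 ratios over DMSO at 12 and 96 h were 1.11 and 0.51 with ICG-001. With C646 they were 0.07 and 0.08, where the 28S row had 0.64 and 0.75. For LOC100132564 the nearest rows were NIT2 (0.96), an omega-amidase, LRRC57 (0.96) and NLRX1 (0.93), a mitochondrial member of the NOD-like receptor family. Their signals also spanned less than that of LOC100132564. Among the drug comparisons, NIT2 passed 1.5-fold only in PANC1 with ICG-001 at 96 h, at 0.63. LRRC57 and NLRX1 did so in no drug comparison.

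The rows nearest to LOC100132761 were Hs.561307 (r = 0.99), LOC100130123 (0.99) and LOC389286 (0.98). LOC100130123 had a like course with a smaller span, at 147 and 149.6 with DMSO and 395 to 502 with the drugs in HCT116, and at 134 and 145 with DMSO and 261 to 385 with the drugs in PANC1. The rows nearest to LOC100133840 were STAG3L1 (0.97), LOC196752 (0.97) and Hs.528168 (0.97). Of these, STAG3L1 had 350.2 to 360 with DMSO and 489.7 to 679 with the drugs in PANC1. Hs.528168 stayed near background, at 129 to 154 over all columns, and was under the limit in each DMSO column. Its drug log2 ratios were 0.05 to 0.25, so its r rests on small differences.

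Other rows lay among the chosen ones. Rows were placed by the smallest of their 4 drug log2 ratios in a line, with controls under the limit set to the limit. In HCT116, LOC100132761 was first of 19063 rows with at least 2.24, LOC100130123 and LOC100130332 followed with 1.43 and 1.40, and LOC100132564 was at rank 4 with 1.12. LOC100129652, with at least 1.10, came next. The 18S row was at rank 21 with 0.75, LOC100133840 at rank 62 with 0.65 and 28S at rank 63 with 0.64. LOC100132394 was at rank 12038. In PANC1 the first 4 places of 19378 rows were held by LOC100132564 with at least 1.99, 28S with at least 1.67, LOC100132394 with 1.56 and LOC100132761 with at least 1.43, and the order of lower bounds is not fixed. PABPC1L, a poly(A)-binding protein gene, came next with 1.23, then LOC100133565 with 1.22 and LOC441763 with at least 0.98, before LOC100133840 at rank 10 with 0.95 and 18S at rank 18 with 0.78. PABPC1L had signals of 689 and 615 with DMSO, 2838 and 3507 with ICG-001, then 1190.05 and 983 with C646 in HCT116.

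The 5S row, RN5S9, was the only other rRNA row found under the names searched. Its HCT116 signals were 821 and 395 with DMSO, 1451 and 853 with ICG-001, then 492 and 586 with C646 at 12 and 96 h. Its PANC1 signals were 654 and 418 with DMSO, 530.4 and 727 with ICG-001, then 499 and 464 with C646. The 5S row was thus higher than its control with ICG-001 at both times in HCT116, by 0.82 and 1.11 on the log2 scale, and at 96 h in PANC1, by 0.80. With C646 at 12 h it was lower in HCT116, at -0.74, so it did not follow the 18S and 28S rows there. Between the DMSO columns it was lower at 96 h in both lines, at -1.05 in HCT116 and -0.65 in PANC1.

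A wider list of structural RNAs, which includes the 5S row, moved in both directions. Of 32 names, 20 were in the table and 17 to 18 were above the limit, and 0 to 2 of these were higher and 0 to 5 lower in the drug comparisons. The lower share was 27.8% with ICG-001 at 96 h in PANC1, beside 3.57% of all rows, and 17.6% with C646 at 12 h in both lines, beside 1.54% of all rows in HCT116 and 2.71% in PANC1. The higher share was 11.8% with ICG-001 in HCT116, beside 4.84% at 12 h and 5.16% at 96 h of all rows. At 96 h the lower share in HCT116 was also 11.8% with ICG-001, beside 5.14% of all rows. With C646 at 96 h in HCT116 it was 11.8%, beside 1.23%. In PANC1 with ICG-001 at 96 h the higher share was 11.1%, beside 3.86%. The rows in each of these higher shares with ICG-001 were RN7SK and the 5S row. RN7SK, the RNA that holds the elongation factor P-TEFb inactive, was higher with ICG-001 by 1.16 and 1.30 on the log2 scale in HCT116 and by 0.63 at 96 h in PANC1. RNY1, a Y RNA of the Ro particle, was lower at 96 h with both drugs, at -0.74 and -0.67 in HCT116, against -1.08 and -0.82 in PANC1. At 96 h of C646 in PANC1, RNY3 was higher at 0.75 and RNY4 lower at -0.93. RN7SL1, the RNA of the signal recognition particle, was bright in each column at 13669 to 21161 and its drug log2 ratios were 0.09 to 0.42.

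The genes that make and process rRNA were examined next. Of the 15 genes of RNA polymerase I transcription, RRN3, an initiation factor of the polymerase, was higher at 0.68 in HCT116 with ICG-001 at 12 h, and TAF1D, a subunit of its selectivity factor, was lower at -1.03 in HCT116 with ICG-001 at 96 h. Each is 6.67% of the list, beside 4.84% of all rows higher and 5.14% lower in these comparisons. In the other 6 drug comparisons 0 of the 15 genes passed 1.5-fold. The list medians were -0.14 to 0.16, beside -0.01 to 0.01 for all rows. RRN3 was named after its value was seen.

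Of 34 rRNA processing and modification genes, 31 in HCT116 and 32 in PANC1 were above the limit, and 0 to 3 were higher and 0 to 4 lower in the drug comparisons. The 4 lower genes were 12.9% of the list with ICG-001 at 96 h in HCT116, beside 5.14% of all rows, and the 3 higher genes were 9.68% with C646 at 12 h in HCT116, beside 2.61%. DIMT1L, which methylates 18S rRNA, was higher with ICG-001 at 96 h, at 0.80 in HCT116 and 0.83 in PANC1. NCL, the nucleolar protein nucleolin, was lower at -0.83 and -0.82 in the same comparisons, and WDR43, a factor of early processing, was lower in HCT116 at 96 h, at -0.83 with ICG-001 against -0.60 with C646. NAT10, which acetylates 18S rRNA, was higher with C646 at 12 h, at 0.87 in HCT116 and 1.03 in PANC1, and it was named after its values were seen. DDX21, a nucleolar helicase, was lower in PANC1 with C646 at -0.80 and -0.63. The list moved more with time in HCT116, where 11 of 31 genes were lower at 96 h than at 12 h with ICG-001 and 17 of 31 with C646, against 3 of 31 with DMSO and 2.78%, 3.29% and 1.57% of all rows. In PANC1 the counts were 1, 0 and 0 of 32.

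The RNA exosome and its cofactors trim and degrade rRNA precursors and adenylated nuclear RNA. Of 19 genes, 17 or 18 were above the limit, and 0 to 2 were higher and 0 to 1 lower in the drug comparisons. The 2 higher genes were 11.1% of the list with ICG-001 at 96 h in HCT116, beside 5.16% of all rows. DIS3L, a cytoplasmic exosome nuclease, was higher with ICG-001 at 96 h, at 0.93 in HCT116 and 0.61 in PANC1, and MPHOSPH6, an exosome cofactor, was lower at -0.68 in PANC1. Of 91 to 93 rows of ribosomal proteins, the partners of rRNA (like-named paralogues and pseudogenes included), 0 to 1 were higher and 1 to 9 lower, with medians from -0.13 to -0.0032. The lower share with ICG-001 at 96 h was 9.78% in HCT116, beside 5.14% of all rows, and 7.61% in PANC1, beside 3.57%. At 96 h the largest rise among them was that of RPL7L1 (0.79, 0.67 and 0.83 with ICG-001 and C646 in HCT116 and C646 in PANC1). The largest falls were those of RPS21 and RPL36AL with ICG-001, at -1.14 in HCT116 and -1.32 in PANC1, and of RPS26 with C646, at -0.78 and -0.66.

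Small nucleolar and Cajal body RNAs, which guide rRNA and snRNA modification or cleavage, had 154 to 164 of 300 rows above the limit. With ICG-001 at 96 h in HCT116, 22 of 154 were lower, against 5.14% of all rows, and 0 to 6 were lower in the other drug comparisons. SNORD3D, a copy of the U3 RNA that takes part in the first cuts of the precursor, was higher in HCT116 at 96 h, at 1.35 with ICG-001 and 1.58 with C646, as well as in PANC1 with C646, at 0.87. SNORA12 was lower with ICG-001 at 96 h, at -1.86 in HCT116 and -1.67 in PANC1. Rows named LOC plus a number, without the 6, had 2844 to 3161 rows above the limit, and 2.04% to 4.33% of them were higher in the drug comparisons beside 1.91% to 5.16% of all rows, so a name of this kind went with no larger share of rises than that of all rows in 3 of 8 comparisons and with a larger one in 5.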

How the data were processed

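Total RNA of HCT116 and PANC1 cells was amplified, labelled and hybridised to Illumina HumanHT-12 v4 BeadChips. Each deposited value is a linear signal intensity for 1 gene name. The authors quantile normalized the arrays in GenomeStudio, left the background in, and averaged replicate arrays, which are described as independent biological replicates. Groups were taken from the labels, with 1 column each, and single arrays were not used here. Because background remains in the signal, ratios of dim rows understate their changes.

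From these values log2 signals and log2 ratios between columns were computed. The background of a column was taken as the peak of its log2 signals (Gaussian kernel, bandwidth factor 0.02) with an SD from the values below the peak, and the detection limit was the peak plus 2.33 SD. A control at or under the limit was replaced by the limit, which makes the fold a lower bound. The calling procedure was tested on simulated data. No statistical test was run, as each group was 1 column.

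The rows and the lists of Pol I, rRNA processing, exosome, structural RNA, ribosomal protein, small nucleolar and LOC rows were chosen with earlier results of these data known. Most genes outside the 6 rows were named by rule. These were, first, the 3 rows with the highest r to each of the 6. Next came up to 3 rows per line that lay among the 6 by smallest drug ratio. The last were the largest rise and fall of each list at 96 h past 1.5-fold. Some rows picked this way among the LOC and small nucleolar rows were left out. RN7SL1, RRN3, NAT10 and the cell type markers were named outside this rule. Identifiers were matched to RefSeq, with 2 of 6 matched.

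The alternatives tried were thresholds of 1.2-fold and 2-fold, no filter, a limit at 5 SD, normexp background correction (offset 16) with quantile normalization within a line, median-centred ratios, quantile normalization over 12 columns, and the other or the mean DMSO column. Software was limma 3.58.1 (R 4.3.3) and Python 3.11.15 with pandas 2.3.3, scipy 1.17.1, matplotlib 3.10.9 and numpy 2.4.6.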

Additional observations from a re-analysis of the deposited data

Results flagged for a closer look

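Contrasts of 96 h over 12 h gave 4 cases in which a row moved at least 1.2-fold in opposite directions in HCT116 and PANC1. Each group was 1 column, so none of these differences was tested. The 28S row had a log2 ratio of 96 h over 12 h of ICG-001 of -0.55 in HCT116 and 2.70 in PANC1, which differ by 3.25. LOC100132564 had -1.00 and 2.06 in the same contrast, which differ by 3.06. Over the same interval with DMSO, LOC100132564 had -1.01 in HCT116 and 0.51 in PANC1, a difference of 1.51, and its PANC1 signal at 12 h was under the detection limit. LOC100133840 had -0.50 and 0.30 from 12 to 96 h of C646, a difference of 0.80. Among rows above the limit in both lines, opposite moves of this size were seen in 1.96% of 15268 rows with ICG-001, 1.17% of 14555 with DMSO and 0.551% of 15064 with C646. LOC100132394, which was not among the 4 cases, also differed in direction between the lines when the drugs were compared at 12 h. Its log2 ratio of ICG-001 over C646 was 1.14 in HCT116 and -0.53 in PANC1. At 96 h the ratio was 0.76 and 0.36, in the same direction in both lines. No share of all rows is given for this contrast at 12 h, so nothing is read from it.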

How the results depend on the processing

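The 14 counts of the 6 rows that were higher were recomputed under 114 alternatives, and 103 lay within 1.5 times the count given above. Of the 14 counts, 8 are of drug over DMSO ratios, which chose the rows, so nothing is read from their stability. The settings without a filter, with the limit at 5 SD and with median-centred ratios each left 14 of 14 counts within this range. At a threshold of 2-fold, the count fell from 5 to 3 for C646 over DMSO in HCT116 at 12 h and at 96 h, to 0 for DMSO 96 h over 12 h in HCT116, to 1 for the same contrast in PANC1 and to 0 for ICG-001 over C646 in HCT116 at 96 h. At 1.2-fold, the DMSO contrast counted 2 rows in HCT116 and 5 in PANC1, and ICG-001 over C646 counted 3 in HCT116 at 96 h and 1 in PANC1 at 12 h. The PANC1 DMSO count of 2 became 5 after normexp correction and 1 after quantile normalization over 12 columns. Of 348 log2 ratios recomputed, 0 called ratios changed sign. Normexp raised ratios of rows with a dim control, such as 28S in PANC1 with ICG-001 at 96 h, from 4.04 to 5.07. No paired analysis was possible because each group was 1 column of averaged arrays, and for the same reason no replicate could be left out. A control at the detection limit, as for LOC100132761, gives only a lower bound on the fold.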
